A study of Bubalus bubalis with 6 samples.

Results

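LPL and CIDEC, a gene of lipid uptake and a gene of the lipid droplet, were examined for circular RNA (circRNA) and mRNA in subcutaneous adipose tissue of Chinese buffalo. The members were all circRNAs that the circRNA table assigns to either symbol, and the transcripts that these entries name. There were 4 such circRNAs among 14990, namely 3 of LPL and 1 of CIDEC, and 2 transcripts among 79746, ENSBTAT00000017086 for LPL and ENSBTAT00000010479 for CIDEC. The tissue came from 6 swamp-type buffaloes of 1 farm in Xinyang, kept on like feed and slaughtered at 6 months (young group, n = 3) or 30 months (adult group, n = 3), with no treatment. Each animal gave 1 library, depleted of rRNA but not of linear RNA, so circular and linear RNA were read from the same library.

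Lipoprotein lipase, the product of LPL, is secreted by adipocytes and works on the wall of capillaries, where it frees fatty acids from the triglycerides of circulating lipoproteins for uptake into fat cells. CIDEC, called FSP27 in mouse, sits at the contact sites of lipid droplets and lets small droplets merge into large ones, which favours the single large droplet of white fat. Both genes are known targets of PPARG, the regulator of fat cell formation. A circRNA arises when a downstream splice site is joined back to an upstream one, and only reads across this back-spliced junction tell it from the linear mRNA of the same gene.

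LPL mRNA rose with age, while CIDEC mRNA was high in both groups. LPL had 184, 57.5 and 331 FPKM (fragments mapped to a transcript, divided by its length and by the depth of the library) in young replicates 1 to 3. The adult replicates 1 to 3 had 3067, 1981 and 1395 FPKM. The adult libraries all lay above the young ones, with 191 ± 137 against 2148 ± 848 FPKM (SD, n = 3). The log2 fold change of FPKM + 1 was 3.74 (SE 0.63, limma adjusted p = 0.00937), and LPL kept its call in each of the 16 alternative settings (adjusted p from 0.00137 to 0.0433). For comparison, 10.5% of the 14691 genes and transcripts tested were called higher in adults, 9.3% were called lower, and 22.3% had every adult library above every young one. In whole tissue, fewer cells of a type and less RNA per cell cannot be told apart.

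CIDEC had 439, 191 and 858 FPKM in young replicates 1 to 3. The adult replicates 1 to 3 had 911, 829 and 719 FPKM. The groups overlapped, since young replicate 3 exceeded adult replicates 2 and 3. The means were 496 ± 337 and 820 ± 96.2 FPKM (SD, n = 3), and the log2 fold change of 0.97 did not pass (SE 0.51, limma adjusted p = 0.218; exact permutation test of FPKM, two-sided, p = 0.3). Single young libraries moved this change in both directions. Without young replicate 2, the log2 fold change fell to 0.41 (limma adjusted p = 0.410). CIDEC passed the test without young replicate 3 (log2 fold change 1.49, adjusted p = 0.0396), where 1816 of 14636 genes and transcripts were called higher. It also passed when the FPKM of the Ensembl transcripts was scaled to an equal sum per library (log2 fold change 1.78, adjusted p = 0.0201), a scaling that moved the median log2 fold change of all genes from 0.01 to 0.68 and the calls over all genes from 1543 higher and 1366 lower to 6546 higher (44.4% of 14758) and 622 lower. Scaling by the median ratio between libraries gave 0.91 for CIDEC (adjusted p = 0.223) and a median of −0.03.

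**Figure D1:**
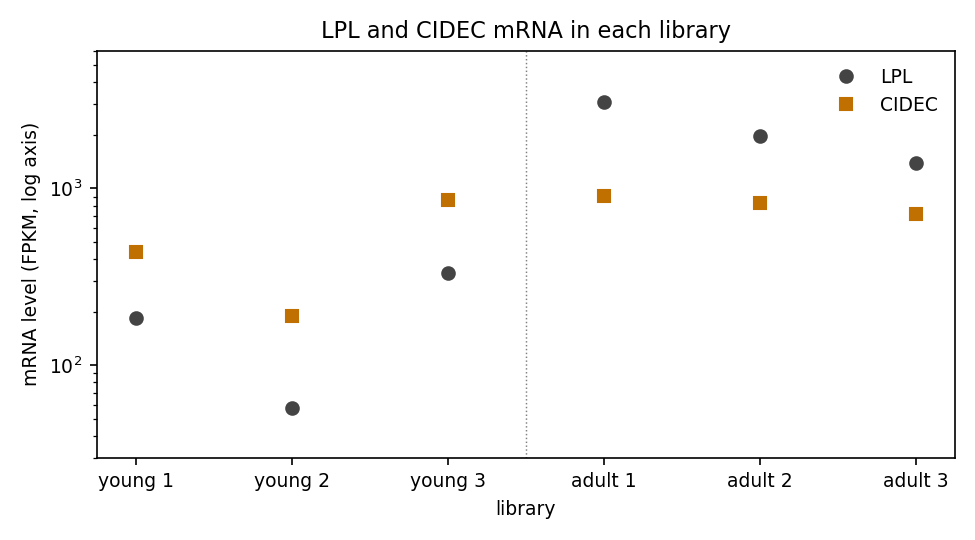
mRNA level of LPL (circles) and CIDEC (squares) in FPKM on a log axis, for each of the 3 young and 3 adult libraries. LPL lies below CIDEC in all 3 young libraries and above it in all 3 adult libraries, and young replicate 2 is the lowest library for both genes.

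Within a library, the order of both genes turned with age. The FPKM of LPL divided by that of CIDEC was 0.419, 0.301 and 0.385 in young replicates 1 to 3. It was 3.37, 2.39 and 1.94 in the adult replicates. LPL was thus the lower of both mRNAs in every young library and the higher in every adult one. On the log2 scale the young ratio was −1.45 ± 0.25 and the adult ratio 1.32 ± 0.40 (SD, n = 3; two-sided exact permutation p = 0.1, and 3 animals against 3 cannot give a smaller one). A ratio within a library does not depend on how the library is scaled. It was computed after the values of both genes had been seen.

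Both transcripts stood near the top of the 21693 Ensembl transcripts. In adult replicates 1 to 3, LPL held places 14, 20 and 22 by FPKM, and CIDEC places 44, 55 and 54. In young replicates 1 to 3, LPL held places 351, 1252 and 254, and CIDEC places 160, 360 and 107. Of the summed FPKM of the Ensembl transcripts, LPL took 0.00543% to 0.0283% in the young libraries and 0.244% to 0.493% in the adult libraries. CIDEC took 0.0180% to 0.0736% and 0.126% to 0.146%. On this share the age groups of CIDEC no longer overlapped (exact permutation test, two-sided, p = 0.1), but neither did those of 53.1% of the 14691 genes and transcripts, with the adult libraries above. The summed FPKM was 999352 to 1166346 in the young and 571997 to 640088 in the adult libraries.

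The circRNAs of both genes were few. They are named here by their positions on the cattle genome UMD3.1, to which the buffalo reads were aligned, and all 4 are of the exon type and marked as not published for cattle. Read counts were recovered from the deposited values, in which 1 back-spliced read stood for 1.42 to 2.59 scaled reads, depending on the library. The study's methods name mapped reads as the base of this scale, but a step of this size does not match the sequencing depth they give, so the unit is unresolved and scaled reads are relative levels. The libraries held 10745 to 17680 back-spliced reads.

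LPL gave 3 circRNAs on chromosome 8, none of which had a read in more than 1 library. The circRNA 8:67487541|67497938, which spans 10397 bases, had 1 read in adult replicate 2. The circRNA 8:67499803|67505108, which spans 5305 bases, had 2 reads in adult replicate 3. The circRNA 8:67499803|67506726, which spans 6923 bases, had 1 read in adult replicate 2. The last 2 begin at the same position and end 1618 bases apart, and the first ends 1865 bases before that shared start, so it shares no base with the others. Together the 3 circRNAs reach over 19185 bases of the gene.

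Summed over its circRNAs, LPL had no read in any young library, none in adult replicate 1 and 2 reads each in adult replicates 2 and 3. Adult replicate 1, the library with the highest LPL mRNA, thus had no read of an LPL circRNA. At the ratio of scaled reads to FPKM of the summed adult libraries, its mRNA would have gone with 1.76 reads. The summed libraries include adult replicate 1 itself, so its own lack of reads lowered this number. Whether LPL circRNA was absent there cannot be decided from it. The 4 adult reads were 0.0101% of 39489 back-spliced reads (95% exact Clopper-Pearson interval 0.00276% to 0.0259%). For 0 of 43676 young reads, the same kind of interval reached up to 0.00845%. Such intervals, and the limits for 0 reads given below, cover counting error only, since PCR can copy 1 molecule into several reads. The groups overlapped, with scaled reads of 2.38 ± 2.13 in adults against 0 in the young group (exact permutation test, two-sided, n = 3, p = 0.4). With reads in only 2 libraries this test cannot give a smaller p, so it cannot decide whether the groups differ. LPL had a read in fewer than 3 libraries and was therefore not part of the fit over host genes.

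CIDEC gave 1 circRNA, 22:16914206|16914633 on chromosome 22, which was seen at both ages. It spans 427 bases, less than all but 1.61% of the 13623 circRNAs of the exon type, whose median span was 11676 bases. Young replicates 1 and 2 had no read of it and young replicate 3 had 3. Adult replicates 1 and 2 had 6 and 5 reads, and adult replicate 3 had none. In both groups, libraries with no read stood beside libraries with several, so the groups overlapped. The young share was 0.00687% of back-spliced reads (95% exact interval 0.00142% to 0.0201%), and the adult share was 0.0279% (0.0139% to 0.0498%).

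In scaled reads, the CIDEC circRNA had a young mean of 1.42 ± 2.46 and an adult mean of 6.40 ± 5.90 (SD, n = 3; two-sided exact permutation p = 0.4). The log2 fold change was 1.45 (SE 1.17, limma adjusted p = 0.566) in a fit of 2834 circRNAs that were read in 3 or more libraries, of which 0.882% were called. With circRNAs summed by host gene, it was again 1.45 (SE 1.15, limma adjusted p = 0.543), where 3.1% of 2096 host genes were called. The SE, which holds the spread between animals as well as counting error, exceeded the change of CIDEC mRNA. A change of that size in its circRNA was therefore not detectable in these fits.

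**Figure D2:**
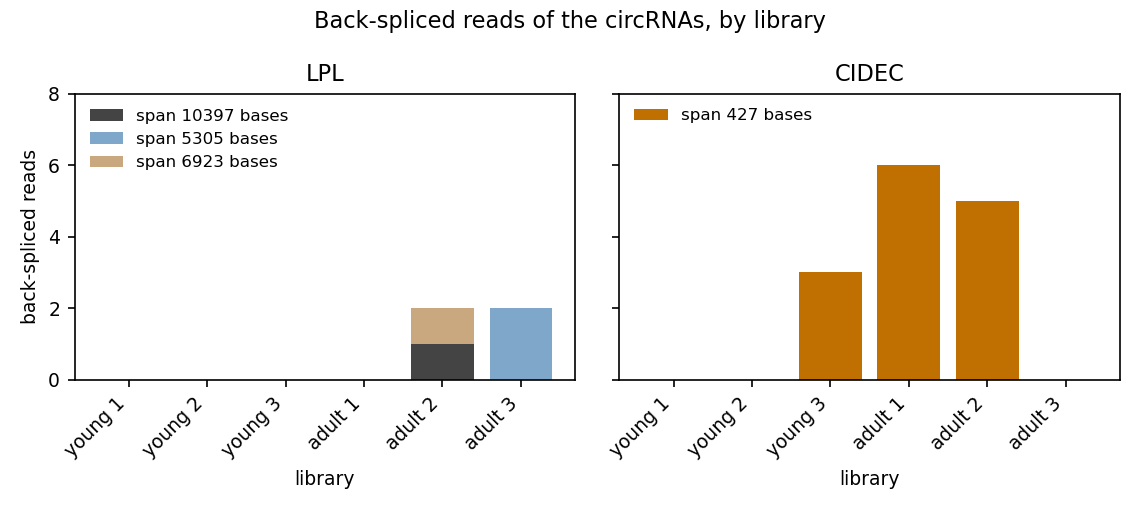
Back-spliced reads of the 3 LPL circRNAs (left, stacked by span) and of the CIDEC circRNA (right) in each library, as counts from 0. LPL has 2 reads each in adult replicates 2 and 3 and none elsewhere, while CIDEC has 3, 6 and 5 reads in young replicate 3 and adult replicates 1 and 2.

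Circular RNA was then set against linear RNA in each library, as scaled reads per 1000 FPKM of the same gene. CIDEC had 4.97 in young replicate 3, 12.8 in adult replicate 1 and 9.14 in adult replicate 2. In the other libraries it had no read, which allows up to 14.2 in young replicate 1, 40.7 in young replicate 2 and 8.57 in adult replicate 3 (limit of 3 reads). The limit of adult replicate 3 lay below the levels of both other adult libraries, and those of young replicates 1 and 2 lay above the level of young replicate 3. This limit is a set value without a confidence level. The levels of adult replicates 1 and 2 rest on 6 and 5 reads, so a difference between the adult libraries was not tested. LPL had 1.53 in adult replicate 2 and 2.95 in adult replicate 3, while no read in adult replicate 1 allows up to 1.89.

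With the 3 libraries of a group summed, CIDEC had 2.86 scaled reads per 1000 FPKM in the young and 7.81 in the adult group. At the adult level, the CIDEC mRNA of the young libraries would have gone with 6.93 reads, and 3 were seen. LPL had 1.11 in the adult group. At that level, the LPL mRNA of the young libraries would have gone with 0.38 reads, so the absence of LPL circRNA from the young group was not informative at this depth. The limit of 3 reads over the young libraries corresponds to 10.7 scaled reads per 1000 FPKM of LPL, above the adult level.

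As a difference per library of log2(scaled reads + 1) and log2(FPKM + 1), circular against linear RNA of CIDEC changed by 0.48 between the ages (SE 1.03, limma adjusted p = 0.856), a fit over 2062 host genes of which 1.6% were called. The sign turned with a pseudocount of 5 (−0.24, adjusted p = 0.883), so no direction can be given. For LPL the difference was −2.28 (exact permutation test, two-sided, n = 3, p = 0.2). As the young libraries had no read, this value is set by the pseudocount of 1 and by the rise of the mRNA, and is no fold.

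Among host genes, LPL and CIDEC had few circular reads for their high mRNA level. Host genes with a symbol and a mean of at least 0.5 FPKM numbered 3875, and each is on the list because at least 1 circRNA of it was found. By mean FPKM, LPL (1169) was the fourth and CIDEC (658) the eighth of them. The 4 reads of LPL and the 14 reads of CIDEC over all libraries stood beside a median of 6 reads. In number of reads, 36.0% of the host genes had fewer than LPL and 69.2% had fewer than CIDEC. LPL had 1.02 and CIDEC 5.94 scaled reads per 1000 FPKM, beside a median of 159, and 0.181% and 2.25% of the host genes had less. As a listed host has at least 1 read, hosts with little mRNA have high ratios. The low place of both genes by this ratio therefore follows in part from their high mRNA.

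The other host genes with as much mRNA had low ratios too. The 6 others with at least the mean FPKM of CIDEC were DGAT2, SPARC, TXNIP, COL3A1, PDK4 and ELOVL6, with 1 to 9 reads each and a median of 2. They had 0.33 to 3.58 scaled reads per 1000 FPKM, so CIDEC, with 14 reads, had the most of these 8 genes on both measures. Of all 110 Ensembl transcripts at least as abundant as CIDEC, 8 were named as a host of a circRNA with a gene symbol, LPL and CIDEC included. Of the 14990 circRNAs, 14236 had a symbol. Over all 21693 Ensembl transcripts, 3976 genes had a transcript so named, which is a count of genes and not of transcripts. A transcript counted only if the circRNA entries name it, so other isoforms of a host gene did not count.

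**Figure D3:**
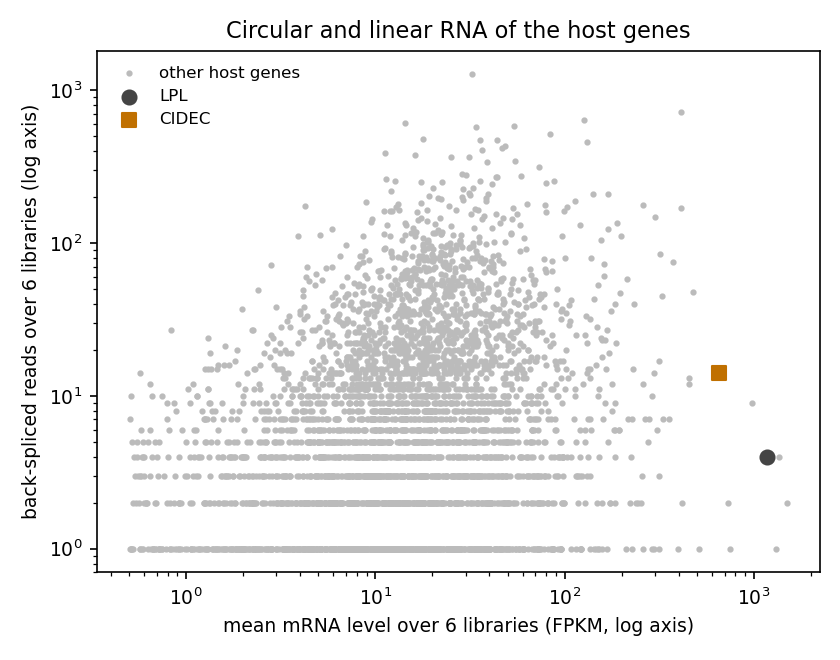
Back-spliced reads summed over 6 libraries against mean mRNA level in FPKM, both on log axes, for 3875 host genes (grey points), LPL (circle) and CIDEC (square). LPL, with 4 reads at 1169 FPKM, and CIDEC, with 14 reads at 658 FPKM, lie at the right edge, below genes of lower mRNA level with over 100 reads.

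Of 21 listed genes around lipoprotein lipase and fatty acid uptake, 6 had a named transcript and were tested. Of these 4 rose, none fell and 2 did not pass, where 10.5% of all genes tested were called higher and 9.3% lower; the median log2 fold change was 1.03, against 0.01 over all genes tested. SEL1L, an endoplasmic reticulum adaptor that lipoprotein lipase needs to mature in mouse, rose from 37.6 ± 8.41 to 76.8 ± 13.2 FPKM (log2 fold change 1.02, limma adjusted p = 0.0261). SORT1, a sorting receptor, rose from 13.1 ± 8.59 to 42.7 ± 3.57 FPKM (1.81, adjusted p = 0.0267). The high-density lipoprotein receptor SCARB1 (log2 fold change 0.93, adjusted p = 0.0324) also rose. The sorting receptor SORL1 had a log2 fold change of 1.08 (adjusted p = 0.10) and the lipoprotein receptor LRP1 one of 0.24 (adjusted p = 0.526). The count of 4 fell to 0 without young replicate 1 or adult replicate 1, to 1 without adult replicate 2 or 3, and to 2 without young replicate 2. It was 0 with the assembled transcripts tested too, 3 with a pseudocount of 5 or without trend, and 1 without the filter on low values. It was 6 with FPKM scaled to an equal sum, where 44.4% of all 14758 genes and transcripts tested were called higher.

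The other lipid droplet genes, like CIDEC, did not pass the test. Of 22 listed, 3 were tested, with a median log2 fold change of 0.33 and none at an unadjusted p under 0.05. Of all 14691 genes and transcripts tested, 5299 had such a p. PLIN4, a droplet coat protein of adipocytes, averaged 190 ± 126 FPKM in young and 404 ± 116 FPKM in adult libraries, a log2 difference of 1.41 (SE 0.68, limma adjusted p = 0.182). PLIN2, a droplet coat protein of many cell types, had a log2 fold change of −0.07 (adjusted p = 0.942), and the small GTPase RAB18 one of 0.33 (adjusted p = 0.349). With FPKM scaled to an equal sum, PLIN4 and RAB18 were called higher, as were 44.4% of all 14758 genes and transcripts tested. PLIN2 had its highest level, 199.6 FPKM, in young replicate 2, and without that library it turned to 0.70 (adjusted p = 0.0492). In that setting, 1309 of 14612 genes and transcripts were called higher.

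None of the 7 tested regulators of 13 listed passed (limma), while PPARG, CREBBP and EP300 had an unadjusted p under 0.05. So did 5299 of all 14691 genes and transcripts tested, so these 3 do not stand out. PPARG averaged 130 ± 93.0 FPKM in young and 266 ± 31.0 FPKM in adult libraries, a log2 difference of 1.28 (SE 0.50, adjusted p = 0.112). Without young replicate 3, PPARG (1.83, adjusted p = 0.0138) and AKT2 (1.20, adjusted p = 0.0414) passed, as CIDEC did. In that setting, 1816 of all 14636 genes and transcripts tested were called higher. The kinase AKT2 had a log2 fold change of 0.80 and the insulin receptor INSR one of 0.29. Those of the coactivators EP300 and CREBBP were 0.40 and −0.55, and that of RXRA, the partner of PPARG on DNA, was 0.11. With FPKM scaled to an equal sum, 5 of the 7 were called higher, beside 44.4% of all 14758 genes and transcripts tested, and CREBBP turned to 0.23. The back-spliced reads of the 7 regulators ranged widely, beside the 4 of LPL: AKT2 had 1, PPARGC1A 2, EP300 8, CREBBP 15, RXRA 23, PPARG 110 and INSR 268.

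**Figure D4:**
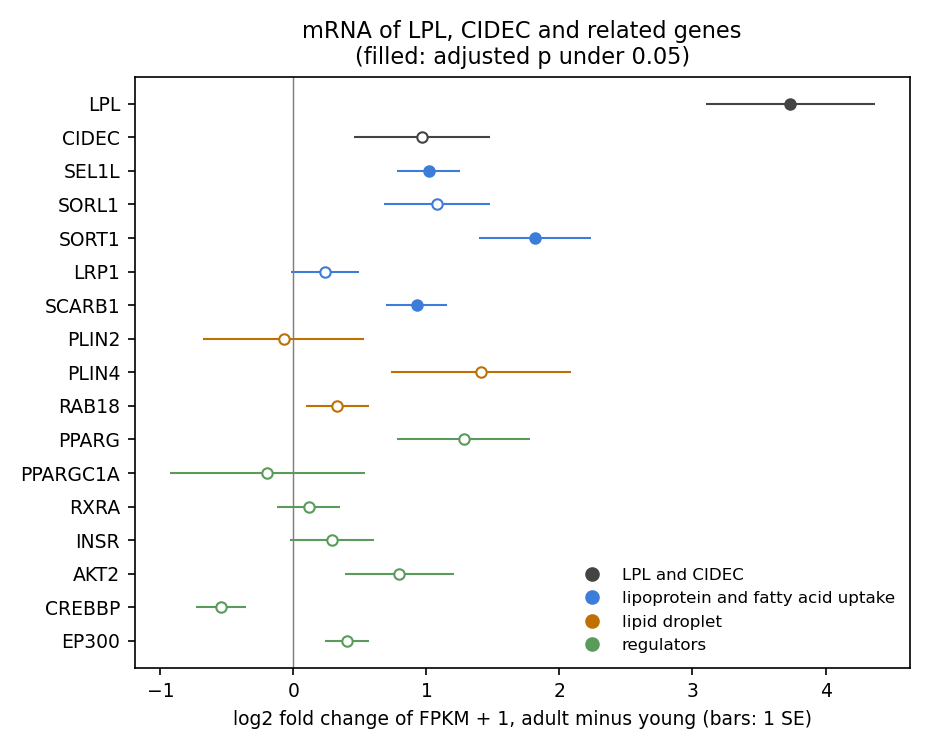
Log2 fold change of FPKM + 1, adult minus young, for LPL, CIDEC and tested genes of uptake, lipid droplet and regulation, as points with bars of 1 SE. Filled points, those of LPL, SEL1L, SORT1 and SCARB1, have an adjusted p under 0.05, and LPL has the largest change of the genes shown.

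The genes most like each member were then sought among 3874 other named genes, by the root mean square difference of log2(FPKM + 1), centred on each gene's mean, over the 6 libraries. Nearest to LPL were TENM4, a teneurin of the cell surface (0.42), LRRC39, a leucine-rich repeat gene (0.46), and ACACA, which makes malonyl-CoA for fatty acid synthesis (0.55), beside a median of 2.00. TENM4 had 7.50, 1.53 and 19.3 FPKM in the young and 113, 74.7 and 31.7 FPKM in the adult libraries, so it shared with LPL the low young replicate 2 and the order of the adult libraries. CIDEC stood at place 243 from LPL (1.41).

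Among the 3 genes nearest to CIDEC were ACSS1, a mitochondrial acetyl-CoA synthetase (0.12), and FLT1, a VEGF receptor of endothelial cells (0.13), beside a median of 0.81. ACSS1 had 16.8, 8.13 and 37.4 FPKM in the young and 35.2, 30.5 and 32.3 FPKM in the adult libraries. As with CIDEC, young replicate 2 was lowest and young replicate 3 exceeded adult replicates 2 and 3.

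Some markers of other cell types were called different between the ages in the same libraries. Of all genes and transcripts tested, 10.5% were called higher in adults and 9.3% lower. For 22.3% every adult library lay above every young one. Of the 10 adipocyte markers listed, PPARG alone had a named transcript, so the tissue label could not be checked by the usual adipocyte markers. Markers of macrophages (3 tested of 9) summed to 177 to 201 FPKM in the young and 60.6 to 97.2 FPKM in the adult libraries. CD163 was called lower, while MRC1 (limma adjusted p = 0.373) and MSR1 (adjusted p = 0.290) were not. Stromal markers (2 tested of 8) summed to 249 to 437 FPKM in the young and 109 to 166 FPKM in the adult libraries. THY1 was called lower and COL6A3 was not (limma adjusted p = 0.348). With FPKM scaled to an equal sum, CD163 and THY1 stayed called lower, while MRC1 turned from −0.62 to 0.18 and COL6A3 from −0.56 to 0.24. MYH11, the 1 of 5 smooth muscle and pericyte markers tested, was called lower (40.2 to 130 against 10.1 to 18.6 FPKM), but not without adult replicate 1 or 2. TNNT3, the 1 of 9 skeletal muscle markers tested, was called lower too, but lost its call in 8 of 16 alternatives, among them FPKM scaled to an equal sum and leaving out adult replicate 1, 2 or 3. PTPRC, the 1 of 5 lymphocyte markers tested, did not pass (adjusted p = 0.146). Endothelial markers (6 tested of 9) summed to 156 to 338 FPKM in the young and 356 to 411 FPKM in the adult libraries, with VWF called higher, though not without adult replicate 1, 2 or 3 or without the filter on low values. Without young replicate 3, as for CIDEC, more were called (4 of 6), where 1816 of all 14636 genes and transcripts tested were called higher. With FPKM scaled to an equal sum, all 6 endothelial markers were called higher, beside 44.4% of all 14758 genes and transcripts. The part of cell composition in the rise of LPL was not tested. Of 9494 lncRNAs, 1323 had a target named by the authors, and none of these was paired with the transcript of LPL or CIDEC.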

How the data were processed

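The deposited tables were used without reprocessing of reads. The authors trimmed reads with Trim Galore, took cattle UMD3.1 with Ensembl gene models as reference, used STAR for alignment and CIRCexplorer2 to find back-spliced junctions. The deposited values are on a log2 scale: log2(x + 1) of back-spliced reads scaled per library for circRNAs, and log2(FPKM + 1) for mRNAs and lncRNAs. FPKM is taken from Cufflinks, which the submitters' processing notes name beside TopHat2 2.0.14, and the table headers do not state it. After undoing the log, each library had 1 step of which 100% of its circRNA values were whole multiples (relative tolerance 1e-06). The depth behind an FPKM is unknown. The columns of fold changes, p-values and FDR of the authors' own comparison, and their lists of differentially expressed features, were not used.

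Transcripts took their symbols from the circRNA table. The 58053 assembled transcripts carry no symbol, so assembled isoforms of LPL or CIDEC would be missed, and 27 transcripts under more than 1 symbol were left unnamed. Whether counting used strand is not given in the sources used here. Differences, adult minus young, were tested in R 4.3.3 by limma 3.58.1 (trended eBayes, Benjamini-Hochberg adjustment over all features, threshold 0.05) on mRNAs with a mean FPKM of at least 0.5, circRNAs and host genes read in 3 or more libraries, and circular minus linear log2 values, with a pseudocount of 1. Single values were compared by exact permutation tests in SciPy 1.17.1. The limit for 0 reads is 3 reads. The limma step was tested on simulated data.

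Named were LPL, CIDEC, the 3 genes most like each, up to 6 members per list with the highest mean FPKM, and, after their values were seen, the abundant host genes. Of the genes under this rule, 2 are counted but not reported here. The members and lists were chosen with earlier results of these data known. Groups came from the sample titles, and no sample was left out.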

Additional observations from a re-analysis of the deposited data

How the results depend on the processing

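Counts of features called changed more than the members did. For mRNA, 2909 genes and transcripts were called, 7168 with FPKM scaled to an equal sum (6546 higher and 622 lower, against 1543 and 1366), and 975 to 3223 with 1 library left out. For circRNAs, 25 were called, 90 with a read in at least 2 libraries, 52 without a filter, 11 as a share of all back-spliced reads, 83 without trend and 15 to 52 with 1 library left out. For summed circRNAs, 65 host genes were called, 18 and 108 with pseudocounts of 0.5 and 5, 43 as a share of all back-spliced reads and 9 without trend. For circular minus linear, 33 were called, 10 and 149 with pseudocounts of 0.5 and 5, 208 with circular RNA as a share of back-spliced reads and FPKM scaled to an equal sum, 15 without trend and 14 to 52 with 1 library left out. The cause of these changes was not tested.

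LPL mRNA kept its direction and call in all 16 alternatives (log2 fold change 3.04 to 4.55). CIDEC mRNA kept its direction in all 16 and gained a call in 2, with FPKM scaled to an equal sum (1.78) and without young replicate 3 (0.41 to 1.49 over the libraries left out). The CIDEC circRNA kept its direction (1.06 to 2.58 singly, 0.72 to 2.58 in the fit over host genes) and was never called. Circular minus linear of CIDEC reversed to −0.24 with a pseudocount of 5 and to −0.28 with the scaling by shares. For LPL, the summed circRNAs (0.52 to 2.18) and circular minus linear (−3.17 to −1.26) had a direction that says nothing of stability, since the young libraries had no read. Without young replicate 3, or adult replicate 1 or 2, the CIDEC circRNA had a read in only 2 libraries and was not tested. No value could be had for LPL from circRNAs seen in at least 2 libraries, and LPL entered a limma fit of summed circRNAs only without a filter (1.46, adjusted p = 0.665).

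The sample titles state no pairing of young and adult animals. Same-numbered libraries did not deviate together (correlations of −0.07, −0.03 and −0.13 over 14691 genes and transcripts). Such weak correlations cannot exclude a pairing by replicate number. With the replicate number as a block, 1466 genes and transcripts, 134 circRNAs, 92 host genes and 94 differences of circular and linear RNA were called. LPL mRNA kept its call with the block (3.74, adjusted p = 0.0210), and CIDEC mRNA had 0.97 (adjusted p = 0.235). Of the 4 uptake genes called, SORT1 alone was called with the block, and SEL1L (adjusted p = 0.0863) and SCARB1 (adjusted p = 0.0917) were not. The summed circRNAs of CIDEC had 1.45 (adjusted p = 0.532) and circular minus linear 0.48 (adjusted p = 0.846). The circRNA results rest on few reads, 4 of LPL and 14 of CIDEC in all.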
